A study of Mus musculus with 4 samples.

Results

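Adipogenic transcription factors were examined in 4 stable lines of 3T3-L1 cells on differentiation day 8. The set held 9 genes, Pparg, Cebpa, Cebpb, Cebpd, Rxra, Nr1h3, Ebf1, Klf9 and Klf15. They were picked by symbol, with earlier results of these data known. Each gene was found as 1 row of the deposited tables, and together they made up 9 of 13084 genes. 3T3-L1 is a murine preadipocyte line that turns into lipid-laden adipocytes under hormonal induction. The FLAG line carried the empty FLAG vector and the FLAG-CACUL1 line overexpressed CACUL1, a cullin-domain protein and nuclear receptor corepressor, and both were selected in G418. The sh-Luc line expressed a hairpin against luciferase and the sh-CACUL1 line a hairpin against CACUL1, and both were selected in hygromycin B. All 4 lines were brought to confluence and induced with the PPARγ agonist rosiglitazone (5 μM), the phosphodiesterase inhibitor IBMX (0.5 mM), the glucocorticoid dexamethasone (1 μg/mL) and insulin (5 μg/mL), followed by medium with insulin. Every line grew out from drug-resistant colonies after transfection, and the species of the CACUL1 insert is not given in the sources used here. The mRNA was sequenced from 1 sample of each line, so that no difference below has a replicate check, and no test, standard error or p-value is given.

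Fat cell differentiation runs through a cascade of these factors. C/EBPβ and C/EBPδ are induced first by the hormones in the cocktail, and they switch on PPARγ and C/EBPα, which then maintain each other and activate the genes of the mature adipocyte. PPARγ binds DNA as a heterodimer with a retinoid X receptor such as RXRα, the product of Rxra. LXRα (Nr1h3), a receptor for oxysterols, and the zinc finger factors KLF9 and KLF15 take part in the later steps, and EBF1 acts both in the commitment of precursors and in mature fat cells.

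Levels are given as FPKM (fragments scaled to the length of the transcript and to the number of mapped fragments), a unit that corrects for transcript length and library size. A difference is that of log2(FPKM + 1), and a gene was counted as lower or higher from 2-fold on this scale, which understates the change of weakly expressed genes. Depth was estimated from the steps between low values as 14200000 to 24000000 fragments, sh-Luc being the deepest at 1.69 times the shallowest sample. Cacul1 itself measured 9.61 FPKM in FLAG, 11.8 FPKM in FLAG-CACUL1, 10.2 FPKM in sh-Luc and 5.39 FPKM in sh-CACUL1. It was therefore lowest in the line with its hairpin, while the overexpressing line was barely above its control. The study checked both of these lines for CACUL1 protein by western blot, which RNA levels do not replace. The adipocyte markers found in the data (5 of 6, Adipoq, Plin1, Fabp4, Cidec and Lipe) summed to 6212 FPKM in FLAG, 361.2 FPKM in FLAG-CACUL1, 1331 FPKM in sh-Luc and 15424 FPKM in sh-CACUL1. Fabp4 made up most of each sum. Of these markers, Plin1 alone was higher in FLAG (158 FPKM) than in sh-CACUL1 (113 FPKM). All 4 lines thus expressed fat cell genes, at very different levels, and the controls differed as well. The tables hold only rows above 0 in all 4 samples (13110 of 13110), so a marker without a row may still be expressed in some of the lines. None of the muscle markers had a row (0 of 4), and the single endothelial marker with one, Pecam1, stayed at 0.301 FPKM or below. Of 5 macrophage markers 3 had a row, Adgre1 and Ptprc having none, and their sum was 24.9 FPKM in FLAG, 68.3 FPKM in FLAG-CACUL1, 6.11 FPKM in sh-Luc and 2.91 FPKM in sh-CACUL1. Between FLAG-CACUL1 and FLAG they moved in opposite directions, Lyz2 by 2.89 and Cd68 by -2.82 on the log2 scale, and their part in the factor levels was not tested.

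Of the 9 factors, 4 were lower in FLAG-CACUL1 against FLAG and higher in sh-CACUL1 against sh-Luc by 2-fold or more, beside 1.69% of all genes, and their promoters are printed to show what these genes carry upstream of their start sites. The sequences are the 250 bases before a RefSeq start on GRCm38.p6 (mm10), read 5′ to 3′ on the gene's strand. Capitals mark matches to the motifs searched. The Pparg window, chr6:115421816-115422065 on the plus strand, lies before the first exon of the PPARγ2 transcript and within an intron of the longer Pparg transcripts. The Cebpa window is chr7:35119043-35119292 on the plus strand, where GENCODE M21 places an intron of the antisense transcript Gm45091. The Nr1h3 window, chr2:91195117-91195366 on the minus strand, takes in 35 bases of the first exon of another Nr1h3 transcript. No GENCODE transcript overlapped the Klf15 window, chr6:90462326-90462575 on the plus strand. This window lies within the RefSeq span of Klf15, chr6:90461043-90491803.
Pparg (PPARγ2): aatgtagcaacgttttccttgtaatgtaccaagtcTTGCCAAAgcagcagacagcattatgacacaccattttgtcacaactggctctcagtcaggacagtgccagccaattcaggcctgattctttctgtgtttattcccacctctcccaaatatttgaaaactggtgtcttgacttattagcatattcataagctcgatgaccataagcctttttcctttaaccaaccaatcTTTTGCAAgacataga
Cebpa: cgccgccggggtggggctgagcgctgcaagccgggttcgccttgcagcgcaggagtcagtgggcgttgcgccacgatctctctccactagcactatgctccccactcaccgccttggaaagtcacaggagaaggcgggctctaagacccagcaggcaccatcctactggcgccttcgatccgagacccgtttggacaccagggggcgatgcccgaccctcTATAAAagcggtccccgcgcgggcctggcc
Nr1h3: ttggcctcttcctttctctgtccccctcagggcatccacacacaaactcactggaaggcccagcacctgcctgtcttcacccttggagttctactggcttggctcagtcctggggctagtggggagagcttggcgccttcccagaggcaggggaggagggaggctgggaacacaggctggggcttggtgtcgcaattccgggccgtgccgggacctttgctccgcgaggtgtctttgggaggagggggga
Klf15: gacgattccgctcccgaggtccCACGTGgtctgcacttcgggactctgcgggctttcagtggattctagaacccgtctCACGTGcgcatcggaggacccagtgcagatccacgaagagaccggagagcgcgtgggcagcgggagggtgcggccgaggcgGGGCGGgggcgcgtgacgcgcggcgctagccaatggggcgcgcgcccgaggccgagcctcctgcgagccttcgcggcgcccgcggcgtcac

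The 9 motifs were searched on both strands in the 250 bases before the start of all 32851 promoters of the RefSeq table, and some of them overlap, since DR1 and DR4 contain the nuclear receptor half-site. The PPARγ2 promoter held matches to the C/EBP motif TTNNGCAA, which 9.56% of all promoters held, at 215 and 16 bases before the start. The Cebpa promoter held the TATA box TATAAA 30 bases before its start, as did 12.4% of all promoters. In the Klf15 promoter the E-box CACGTG occurred at 228 and 172 bases before the start and the GC box GGGCGG at 91 bases, and 6.02% and 32.7% of all promoters held these. None of the 9 motifs was in the printed Nr1h3 window. The remaining motifs were the half-site AGGTCA (14% of promoters), its direct repeats with 1 base (DR1, 0.0335%) or 4 bases (DR4, 0.0152%) between them, the glucocorticoid receptor palindrome of GNACA and TGTNC with 3 bases between them (0.387%) and the EBF palindrome of TCCC and GGGA with 2 bases between them (0.779%), and none of these was in the printed windows. The table holds other Pparg starts upstream, whose windows, chr6:115360894-115361143 and chr6:115362099-115362348, each held 1 half-site, at 28 and 9 bases before the start. The share of G and C was 40.8% in the PPARγ2 promoter, 66.4% in Cebpa, 63.2% in Nr1h3 and 72% in Klf15, beside a median of 52.4% over all promoters. A match is a string of letters and was not tested as a binding site. Sequences matched 8 of the 9 factors, with 13 promoters in all, and Cebpd had none.

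The early factors were well expressed in all 4 lines. Positions of the genes are those of RefSeq on GRCm38.p6, and every factor but Nr1h3 lies on the plus strand. Cebpb (chr2:167688915-167690432), whose product C/EBPβ starts the cascade, measured 274 FPKM in FLAG, 202 FPKM in FLAG-CACUL1, 113 FPKM in sh-Luc and 142 FPKM in sh-CACUL1. It was the most abundant of the 9 factors in every line, and the FLAG pair stood above the hairpin pair. The log2 difference was -0.44 between FLAG-CACUL1 and FLAG and 0.32 between sh-CACUL1 and sh-Luc, both under 2-fold. Cebpd (chr16:15887286-15889545), its early partner, measured 27.0 FPKM in FLAG, 55.7 FPKM in FLAG-CACUL1, 46.5 FPKM in sh-Luc and 31.0 FPKM in sh-CACUL1. FLAG-CACUL1 and sh-Luc were high and the other lines low. The difference of 1.02 between FLAG-CACUL1 and FLAG lay just past 2-fold and dropped under it, to 0.99 and 0.88, when the samples were scaled by quantiles or by median of ratios, and that between sh-CACUL1 and sh-Luc was -0.57. Within these positions, exons of antisense genes in GENCODE M21 cover 20.7% of the Cebpb exon bases (Tmem189) and 14.2% of the Cebpd exon bases (Spidr), and the sources do not say whether fragments were counted by strand.

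Pparg (chr6:115360879-115490404), which encodes the master regulator of adipogenesis, measured 70.1 FPKM in FLAG, 12.3 FPKM in FLAG-CACUL1, 14.8 FPKM in sh-Luc and 61.8 FPKM in sh-CACUL1. FLAG and sh-CACUL1 were high and close to each other, whereas FLAG-CACUL1 and sh-Luc were low and nearly level. By FPKM, FLAG exceeded FLAG-CACUL1 5.71-fold (log2 difference -2.42 for FLAG-CACUL1) and sh-CACUL1 exceeded sh-Luc 4.19-fold (2.00). In the first comparison only 136 of the 13084 genes had a more negative difference, and in the second 139 had a more positive one. The Pparg row covers both the γ1 and the γ2 transcript (NM_001127330 and NM_011146), so that the isoform behind the printed promoter could not be read on its own. In bulk RNA, fewer differentiated cells and less RNA per cell cannot be told apart, here and for every factor below.

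Cebpa (chr7:35119293-35121928), whose product C/EBPα sustains PPARγ expression and insulin-dependent glucose uptake, measured 9.16 FPKM in FLAG, 1.58 FPKM in FLAG-CACUL1, 0.421 FPKM in sh-Luc and 2.97 FPKM in sh-CACUL1. The order of the lines differed from that of Pparg only in that sh-Luc, not FLAG-CACUL1, was the lowest. In both orders sh-CACUL1 stood below FLAG, by -1.36 on the log2 scale for Cebpa and -0.18 for Pparg. The ratio was 5.81-fold between FLAG and FLAG-CACUL1 (log2 difference -1.98 for FLAG-CACUL1) and 7.05-fold between sh-CACUL1 and sh-Luc (1.48). By RT-qPCR, the study reported C/EBPα as the exception among its selected adipogenic genes, which otherwise fell on overexpression and rose on knockdown. The FPKM levels of Cebpa rest on few reads, an estimated 346 fragments in FLAG, 59 fragments in FLAG-CACUL1, 26 fragments in sh-Luc and 118 fragments in sh-CACUL1. Exact 95% Poisson intervals, which cover counting error only, were 1.20 to 2.03 FPKM in FLAG-CACUL1, 0.270 to 0.605 FPKM in sh-Luc and 2.46 to 3.56 FPKM in sh-CACUL1, and they did not overlap.

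Within the C/EBP family the balance moved with the line. Of the summed FPKM of Cebpa, Cebpb and Cebpd, Cebpa made up 2.95% in FLAG and 1.69% in sh-CACUL1 but 0.609% in FLAG-CACUL1 and 0.263% in sh-Luc. Cebpd made up 8.70% and 17.7% in the former lines and 21.5% and 29.0% in the latter. The early members thus outweighed Cebpa everywhere, and most of all in the lines with low Pparg. Cebpb exceeded Cebpa 29.9-fold in FLAG and 47.8-fold in sh-CACUL1, but 127.9-fold in FLAG-CACUL1 and 269.1-fold in sh-Luc.

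**Figure D1:**
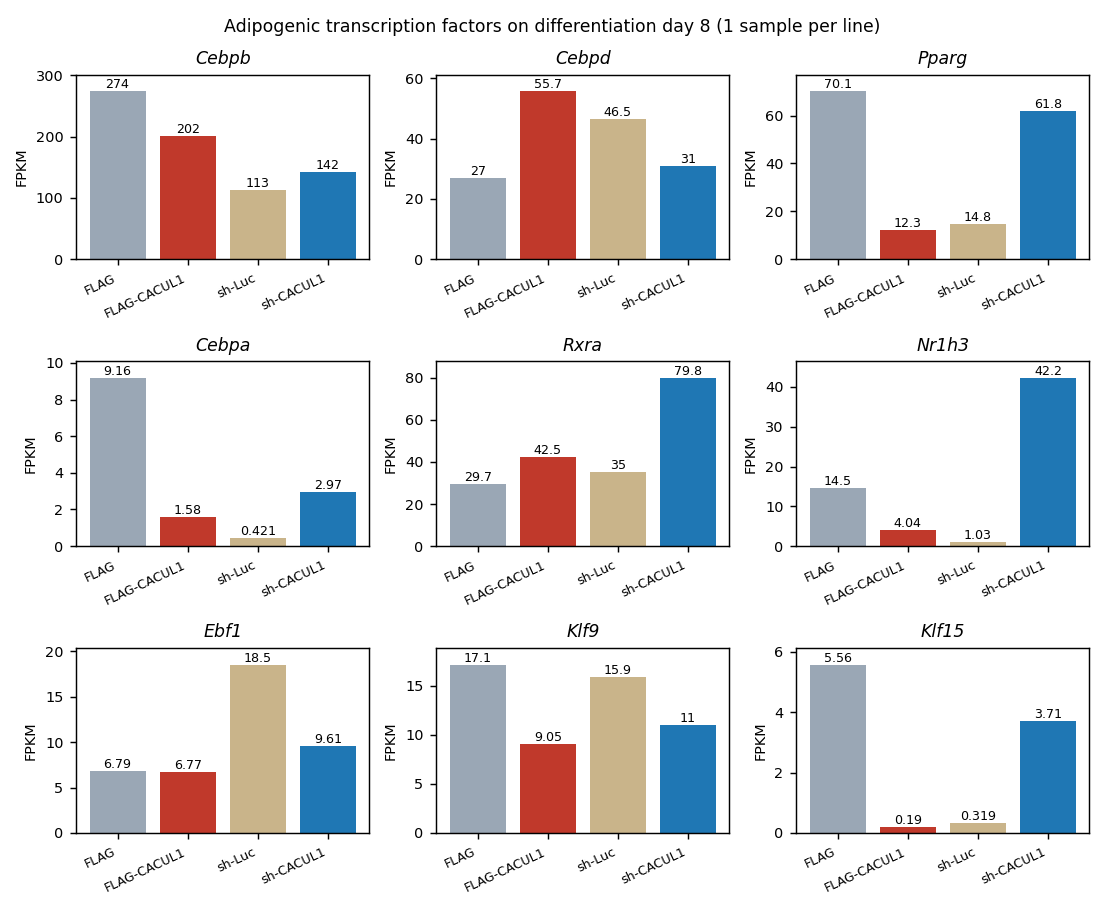
FPKM (vertical axes, each from 0) of the 9 factors in the 4 lines, 1 bar per sample with its value above it and no error bars because there was 1 sample per line. For Pparg, Cebpa, Nr1h3 and Klf15 the FLAG bar exceeds that of FLAG-CACUL1 and the sh-CACUL1 bar that of sh-Luc, while Cebpd shows the reverse.

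Among the receptors, Rxra and Nr1h3 behaved differently. Rxra (chr2:27676445-27763319), which encodes the partner of PPARγ and LXRα on DNA, measured 29.7 FPKM in FLAG, 42.5 FPKM in FLAG-CACUL1, 35.0 FPKM in sh-Luc and 79.8 FPKM in sh-CACUL1. Only sh-CACUL1 stood apart, the other lines lying between 29.7 and 42.5 FPKM. The log2 difference was 0.50 for FLAG-CACUL1 against FLAG, which is under 2-fold and upward, and 1.17 for sh-CACUL1 against sh-Luc. Nr1h3 (chr2:91184061-91202829) measured 14.5 FPKM in FLAG, 4.04 FPKM in FLAG-CACUL1, 1.03 FPKM in sh-Luc and 42.2 FPKM in sh-CACUL1. It covered the widest range of the 9 factors, 40.9-fold between sh-CACUL1 and sh-Luc. This difference of 4.41 on the log2 scale was exceeded by 12 of the 13084 genes, and the one between FLAG-CACUL1 and FLAG was -1.62. The sh-Luc value rests on an estimated 45 to 48 fragments, depending on the transcript, with an interval of 0.760 to 1.39 FPKM.

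Ratios between related receptors in the same sample do not depend on a scaling factor per sample. Pparg over Ppard, the broadly expressed paralog, was 1.47 in FLAG and 3.72 in sh-CACUL1, but 0.484 in FLAG-CACUL1 and 0.815 in sh-Luc. Pparg therefore exceeded Ppard in FLAG and sh-CACUL1 and was below it in the other lines. LXRβ (Nr1h2), the ubiquitous LXR, exceeded Nr1h3 by 2.64-fold in FLAG, 7.31-fold in FLAG-CACUL1 and 26.8-fold in sh-Luc, but the ratio was 0.490 in sh-CACUL1, the only line in which Nr1h3 was the more abundant. Rxra over Rxrb ran from 1.44 in FLAG to 3.60 in sh-CACUL1, with 2.96 in FLAG-CACUL1 and 1.92 in sh-Luc. Pparg exceeded Rxra 2.36-fold in FLAG, whereas the ratio was 0.774 in sh-CACUL1, 0.422 in sh-Luc and 0.289 in FLAG-CACUL1. Of all genes, 7.22% were lower and 7.51% higher in FLAG-CACUL1, and 16.4% were lower and 4.94% higher in sh-CACUL1. Of the 7 PPAR, RXR and LXR genes measured, 2 were lower and 0 higher in FLAG-CACUL1, and 0 were lower and 4 higher in sh-CACUL1. The 4 were Pparg, Rxra, Nr1h3 and Rxrg, the last of which was barely expressed, at 1.27 FPKM in sh-CACUL1.

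**Figure D2:**
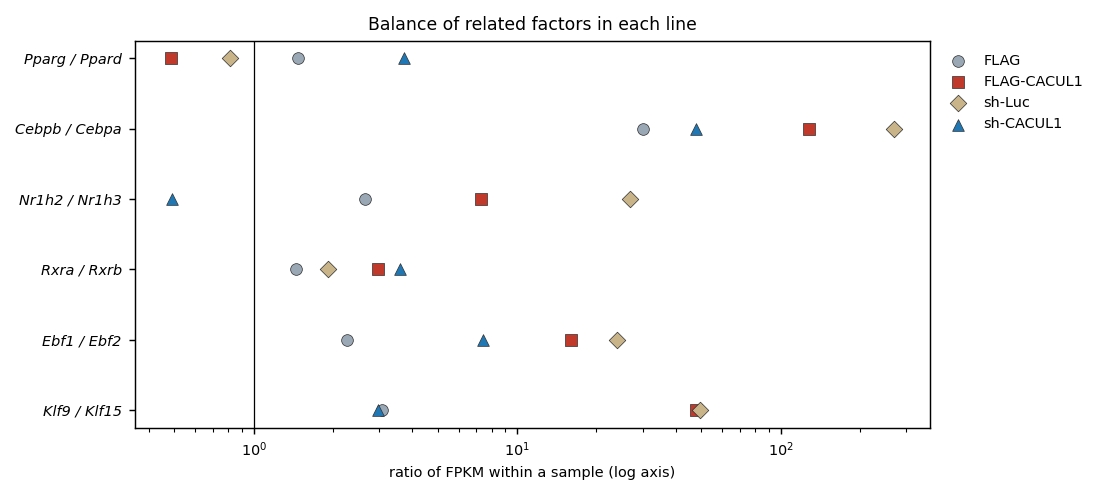
Ratio of the FPKM of 2 related factors within a sample (horizontal log axis, line at 1), with 1 symbol per line. Pparg over Ppard was above 1 in FLAG and sh-CACUL1 only, and Nr1h2 over Nr1h3 was below 1 only in sh-CACUL1, at 0.490.

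Ebf1 (chr11:44618100-45008096), an early B-cell factor family member that acts upstream of Pparg and Cebpa, measured 6.79 FPKM in FLAG, 6.77 FPKM in FLAG-CACUL1, 18.5 FPKM in sh-Luc and 9.61 FPKM in sh-CACUL1. Only sh-Luc was set apart. FLAG-CACUL1 and FLAG were level (log2 difference -0.00), and sh-CACUL1 lay below sh-Luc by less than 2-fold (-0.88). Its relative Ebf2, a factor of brown fat precursors, measured 3.01 FPKM in FLAG, 0.424 FPKM in FLAG-CACUL1, 0.775 FPKM in sh-Luc and 1.29 FPKM in sh-CACUL1. It was the 1 of 3 measured EBF genes past 2-fold in FLAG-CACUL1, at -1.49, where 7.22% of all genes were lower and 7.51% higher. In sh-CACUL1, 0 of the 3 passed it, beside 16.4% lower and 4.94% higher.

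The KLF members parted ways. Klf15 (chr6:90461043-90491803), which encodes a factor that induces Pparg and the glucose transporter GLUT4, measured 5.56 FPKM in FLAG, 0.190 FPKM in FLAG-CACUL1, 0.319 FPKM in sh-Luc and 3.71 FPKM in sh-CACUL1. FLAG and sh-CACUL1 were the high lines, as for Pparg. The log2 difference was -2.46 for FLAG-CACUL1 against FLAG and 1.84 for sh-CACUL1 against sh-Luc. By FPKM these are ratios of 29.3 and 11.6, but the low levels rest on an estimated 6 fragments in FLAG-CACUL1 and 18 in sh-Luc. Their counting intervals, 0.0651 to 0.386 FPKM and 0.187 to 0.500 FPKM, overlapped. Klf9 (chr19:23141226-23168129), which is induced during differentiation and binds the Pparg promoter, measured 17.1 FPKM in FLAG, 9.05 FPKM in FLAG-CACUL1, 15.9 FPKM in sh-Luc and 11.0 FPKM in sh-CACUL1. The controls were the higher lines for Klf9, and both differences were downward and under 2-fold (-0.85 and -0.49). After quantile normalization and median-of-ratios scaling the first became -0.88 and -0.98, and the second -0.05 under both. Klf9 over Klf15 was 3.08 in FLAG and 2.95 in sh-CACUL1, but 47.7 in FLAG-CACUL1 and 49.6 in sh-Luc.

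Counted over the set, 4 of 9 factors were lower in FLAG-CACUL1 (Pparg, Cebpa, Nr1h3 and Klf15), beside 7.22% of all genes, and 1 was higher (Cebpd), beside 7.51%. The median difference of the factors was -0.85, and that of all genes 0.09. Against sh-Luc, 5 of 9 were higher in sh-CACUL1 (the same 4 and Rxra), beside 4.94% of all genes, and 0 were lower, beside 16.4%. Their median was 1.17, against -0.30 for all genes. The latter is a shift of the whole sample, which became -0.01 after quantile normalization and 0.01 after median-of-ratios scaling, and the 5 calls were kept under both. The share that was both lower in FLAG-CACUL1 and higher in sh-CACUL1 was 44.4% of the factors (4 of 9) and 1.69% of all genes (221 of 13084). The reverse pattern held for 0 of the factors and 395 genes. The factors were named for their role in fat cells, and the adipocyte markers moved the same way, 5 of 5 being lower in FLAG-CACUL1 and 5 of 5 higher in sh-CACUL1. How much of the differences goes with the degree of differentiation was not tested.

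**Figure D3:**
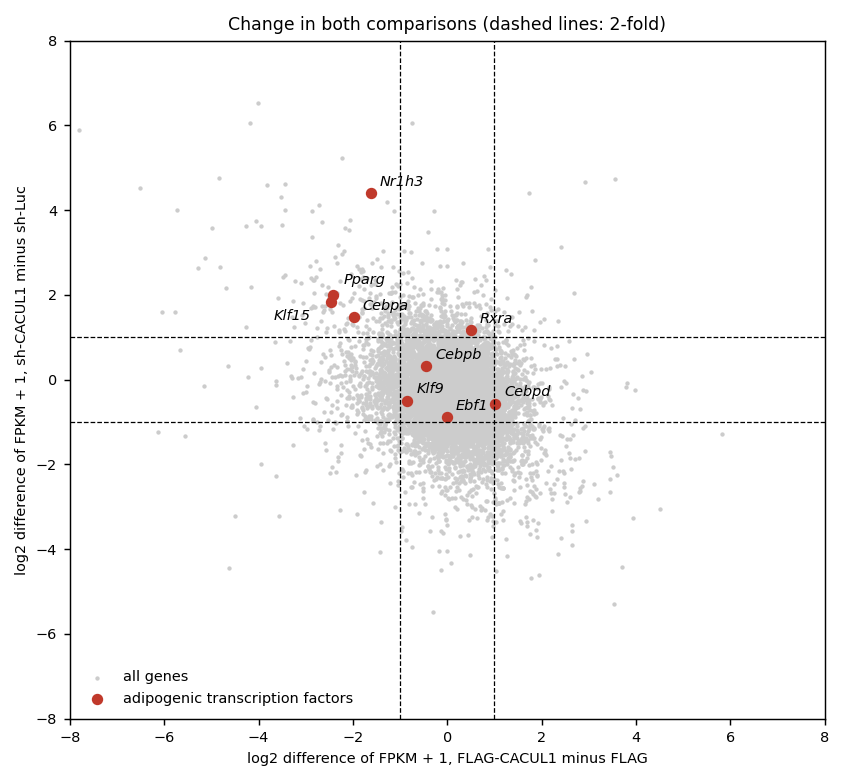
Log2 difference of FPKM + 1 for FLAG-CACUL1 minus FLAG (horizontal axis) and sh-CACUL1 minus sh-Luc (vertical axis), with 1 grey point per gene, red points for the 9 factors and dashed lines at 2-fold. Pparg, Cebpa, Nr1h3 and Klf15 lie in the upper left, Nr1h3 highest at 4.41, and Cebpb, Klf9 and Ebf1 lie inside the 2-fold lines.

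The controls also differed from each other. Between sh-Luc and FLAG, which differ in vector and drug selection, 5 of 9 factors were lower in sh-Luc (Pparg -2.17, Cebpa -2.84, Cebpb -1.27, Nr1h3 -2.93 and Klf15 -2.31), beside 8.58% of all genes. Ebf1 was the 1 factor that was higher, by 1.32, beside 12.4%. The calls therefore depend on which control is used. Set against sh-Luc, FLAG-CACUL1 had 1 lower factor, Ebf1 (-1.33), beside 4.87% of all genes, and 1 higher, Nr1h3 (1.31), beside 5.04%, while Pparg (-0.25) and Klf15 (-0.15) were under 2-fold. Set against FLAG, sh-CACUL1 had 1 lower factor, Cebpa (-1.36), beside 15.4%, and 2 higher, Rxra (1.40) and Nr1h3 (1.48), beside 7.45%, while Pparg (-0.18) and Klf15 (-0.48) were under 2-fold. Thus Rxra and Nr1h3 passed 2-fold upward in sh-CACUL1 against either control, and none of the 9 factors passed 2-fold downward in FLAG-CACUL1 against both. The comparisons of a line with each control share its single sample, and the share of all genes passing against both was not computed. Vector, selection and colony cannot be told apart here.

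**Figure D4:**
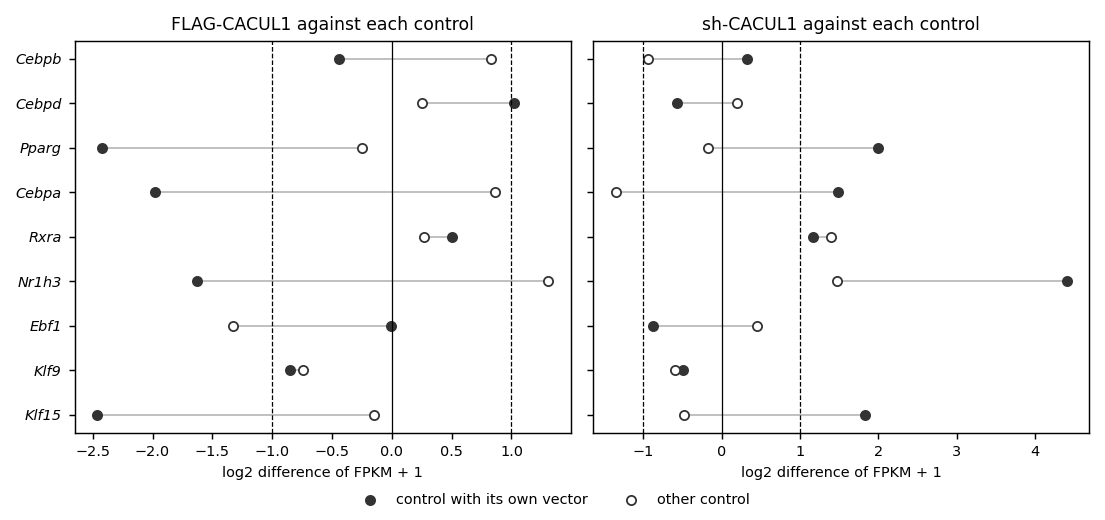
Log2 difference of FPKM + 1 (horizontal axes) of each factor in FLAG-CACUL1 (left) and sh-CACUL1 (right) against the control with its own vector (filled) and the other control (open), with dashed lines at 2-fold. For Pparg, Cebpa, Nr1h3 and Klf15 the points lie far apart, as for Pparg in FLAG-CACUL1 at -2.42 and -0.25, and for Klf9 they lie close together.

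Genes known to be driven by the factors were taken from a list of PPARγ and C/EBPα targets, of which 22 of 25 were measured. They include all the measured adipocyte markers (Adipoq, Plin1, Fabp4, Cidec and Lipe), so the counts of these lists are not independent. In FLAG-CACUL1, 20 were lower and 0 higher (median -2.78), beside 7.22% and 7.51% of all genes. In sh-CACUL1, 18 were higher and 1 lower (median 2.55), beside 4.94% and 16.4%. All 18 had been lower in FLAG-CACUL1, and 1.69% of all genes showed both changes. The most abundant was Fabp4, a fatty acid binding protein, at 4991 FPKM in FLAG, 320.4 FPKM in FLAG-CACUL1, 1020 FPKM in sh-Luc and 12543 FPKM in sh-CACUL1 (differences -3.96 and 3.62). The next in abundance were Lpl, which encodes lipoprotein lipase (-1.16 and 1.57), Adipoq, the adipokine adiponectin (-5.13 and 2.86), and Cfd, the adipokine adipsin (-7.81 and 5.90). Fabp5 (-1.50 and 2.84), the lipid droplet gene Cidec (-5.72 and 4.01), the lipase inhibitor gene Angptl4 (-2.80 and 1.72) and the fatty acid transporter gene Cd36 (-1.78 and 2.43) followed. Pdk4, a kinase that holds back pyruvate oxidation, was the 1 lower in sh-CACUL1, at -2.53. Fabp4 was higher in sh-CACUL1 than in FLAG, where Pparg was not. The insulin receptor gene Insr (0.37) and the lipid droplet genes Plin2 (0.34) and Plin4 (0.52) stayed under 2-fold in sh-CACUL1. These counts also depend on the control. Against sh-Luc, Fabp4 (-1.67), Adipoq (-2.85) and Cfd (-2.03) were still lower in FLAG-CACUL1, while Lpl (0.52) and Fabp5 (0.20) were not.

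Known LXR targets, read beside Nr1h3, were measured for 10 of 11 genes. In FLAG-CACUL1, 6 were lower and 0 higher (median -1.26), beside 7.22% and 7.51% of all genes. In sh-CACUL1, 5 were higher and 1 lower (median 1.11), beside 4.94% and 16.4%. Scd1, a fatty acid desaturase that PPARγ and SREBP-1c also act on, measured 1914 FPKM in FLAG, 19.9 FPKM in FLAG-CACUL1, 36.3 FPKM in sh-Luc and 857 FPKM in sh-CACUL1. Scd2, a related desaturase gene, differed by -2.44 and 0.05. The cholesterol exporter Abca1 differed by -1.26 and 1.58, and Lpcat3, which remodels phospholipids, by -2.03 and 1.53. Apoe (0.81 and 2.36) and Fasn (0.27 and 1.25) passed 2-fold only in sh-CACUL1. Srebf1 passed 2-fold only in FLAG-CACUL1 (-1.27 and 0.92). Pltp, a phospholipid transfer protein, ran the other way in sh-CACUL1 (-1.37). Against sh-Luc, FLAG-CACUL1 differed by -0.83 for Scd1 and -1.33 for Lpcat3 but by 1.54 for Abca1.

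**Figure D5:**
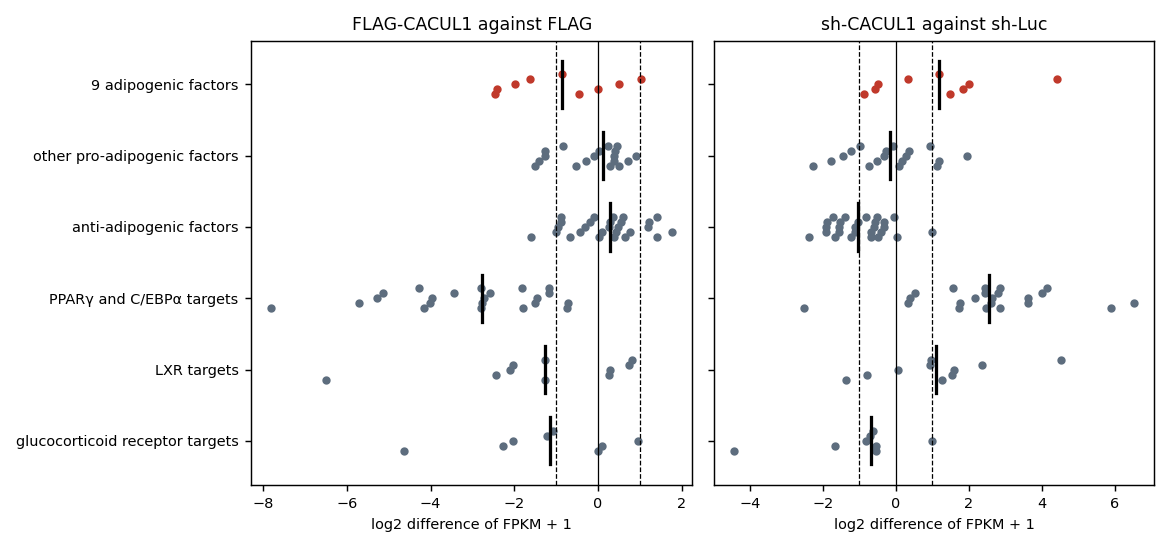
Log2 difference of FPKM + 1 (horizontal axes) of each measured gene in 6 lists, with FLAG-CACUL1 against FLAG on the left and sh-CACUL1 against sh-Luc on the right, points for genes, bars for medians and dashed lines at 2-fold. PPARγ and C/EBPα targets lie furthest from 0, with medians of -2.78 and 2.55, and anti-adipogenic factors have medians of 0.29 and -1.04.

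The other factors with a known positive role did not share the pattern as a list. Of 18 measured, 4 were lower and 0 higher in FLAG-CACUL1 (median 0.13), beside 7.22% and 7.51% of all genes. In sh-CACUL1, 4 were lower and 3 higher (median -0.18), beside 16.4% and 4.94%. Lower in FLAG-CACUL1 and higher in sh-CACUL1 were 0 of the 18, beside 1.69% of all genes. Srebf1, which encodes the lipogenic factor SREBP-1c, came near with -1.27 and 0.92. Klf5, which acts between C/EBPβ and PPARγ, and Egr2 (Krox20), which acts before C/EBPβ, were lower in both treated lines (Klf5 -1.26 and -1.45, Egr2 -1.40 and -1.22). The early factors Klf4 (0.91 and -1.78) and Klf6 (0.30 and -2.26) were lower in sh-CACUL1 only. The 3 genes higher in sh-CACUL1 were Stat5a (1.12), Bcl6 (1.17) and the preadipocyte commitment factor Zfp423 (1.94).

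Factors known to oppose adipogenesis were measured for 27 of 30 genes. In FLAG-CACUL1, 5 were higher and 1 lower (median 0.29), beside 7.51% and 7.22% of all genes. In sh-CACUL1, 14 were lower and 0 higher, beside 16.4% and 4.94%. Their median there, -1.04, lay below the -0.30 of all genes. The pattern of higher in FLAG-CACUL1 and lower in sh-CACUL1 held for 4 of them, beside 395 of all 13084 genes. The 4 were Ctnnb1, the Wnt effector β-catenin (1.23 and -1.13), Nr2f2 or COUP-TFII (1.77 and -1.39), Zfp521, an EBF antagonist (1.42 and -1.91), and Sox9 (1.42 and -2.39). Bhlhe40 was the 1 that was lower in FLAG-CACUL1 (-1.60). Lower in sh-CACUL1 only were, among others, the mesenchymal factors Twist2 (0.64 and -1.91) and Twist1 (0.36 and -1.55), Wwtr1, the Hippo effector TAZ (-0.20 and -1.54), and Smad3 of the TGF-β pathway (0.09 and -1.04). The dominant-negative C/EBP member Ddit3 (CHOP) differed by -0.88 and -1.68, and its levels were 820 FPKM in FLAG, 447 FPKM in FLAG-CACUL1, 216 FPKM in sh-Luc and 67.0 FPKM in sh-CACUL1. Of the 6 preadipocyte and fibroblast markers, which are shared with connective tissue cells, 4 were higher and 1 lower in FLAG-CACUL1, beside 7.51% and 7.22% of all genes. In sh-CACUL1, 4 of these markers were lower and 2 higher, beside 16.4% and 4.94%. Their summed level, mostly that of Col1a1 and Col1a2, was 4124 FPKM in FLAG, 6159 FPKM in FLAG-CACUL1, 2637 FPKM in sh-Luc and 545 FPKM in sh-CACUL1. Its part in the factor levels was not tested.

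Within the wider families, most paralogs did not show the pattern of Klf15 and Cebpa. Of all genes, 7.22% were lower and 7.51% higher in FLAG-CACUL1, and 16.4% were lower and 4.94% higher in sh-CACUL1. Of 13 measured KLF genes 2 were lower and 1 higher in FLAG-CACUL1 (median 0.09), and 7 were lower and 1 higher in sh-CACUL1 (median -1.04). Klf15 was the 1 gene that was lower and then higher, and Klf16 (1.11 and -1.04) the 1 with the reverse. Of 6 measured C/EBP genes 1 was lower and 1 higher in FLAG-CACUL1, and 1 was lower (Ddit3) and 2 higher in sh-CACUL1. The higher ones were Cebpa and Cebpg, which encodes a heterodimer partner of the other C/EBPs (1.31).

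Likeness across the 4 lines was measured as the Euclidean distance between log2(FPKM + 1) values centred on their mean, over the 9563 genes that reached 1 FPKM in every line and the factors themselves. With only 4 points it is a description of levels. Pparg and Klf15 were the closest pair of factors, at a distance of 0.229, and Pparg was nearer to Klf15 than any other gene. This closeness belongs to the FPKM + 1 scale, on which the low levels of Klf15 are compressed. With no pseudocount, the differences in FLAG-CACUL1 and sh-CACUL1 were -4.87 and 3.54 for Klf15 but -2.51 and 2.07 for Pparg. Nr1h3 and Ebf1 were the farthest pair, at 3.99. The gene nearest to Pparg outside the set was Ppp1r3c, a glycogen-targeting phosphatase subunit (0.239), followed by the glycerol-3-phosphate acyltransferase gene Gpat3 (0.405) and Jak3 (0.413). Cebpa was most like Acss2, a cytosolic acetyl-CoA synthetase (0.361), Parm1 (0.457) and the angiogenic factor Vegfa (0.478). Nr1h3 had no near neighbour, its nearest being the mitochondrial subunit gene Cox8b at 1.15 and the fatty acid binding protein gene Fabp5 at 1.18.

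The factors with a narrow range had closer neighbours. Cebpb was most like Hspa9, a mitochondrial chaperone gene (0.0568), and Cebpd was most like Mrfap1 (0.0301), the proteasome ATPase gene Psmc4 (0.0525) and Max, the partner of MYC (0.0594). Rxra was most like Ppcs, of coenzyme A synthesis (0.0417), and Ebf1 most like the kinetochore gene Nuf2 (0.0968). Klf9 was most like Tipin (0.0485), and next came Foxc2, of the anti-adipogenic list (0.0649). A small distance is easier to reach for a factor that varies little.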

How the data were processed

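Total RNA of 4 stable 3T3-L1 lines on day 8 was used for mRNA-seq, which a company carried out for the study. The deposited tables hold 13110 rows of FPKM as computed for the authors, named by RefSeq transcripts, and the submitters' processing notes name mm10. The aligner, the FPKM program and strand handling are not given in the sources used here. Read counts were not used, so no count test was possible. Rows were joined to symbols through GENCODE M21, 191 rows had no symbol and 8 had more than 1, and 52 rows sharing 26 symbols were summed, which left 13084 genes. Of the 9 factors 7 had at least 1 FPKM in all samples (not Cebpa and Klf15). Each line was compared with the control of its own vector as a difference of log2(FPKM + 1) with a 2-fold cut-off, and the controls with each other. Depth was estimated from FPKM steps in single-transcript rows no shorter than 3000 bases, and 95% Poisson intervals from the estimated fragments.

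The members and gene lists were chosen with earlier results of these data known. The text names all 9 factors, Cacul1 and, per list, up to 8 genes past 2-fold in falling order of mean FPKM. The nearest genes by distance come from the 3 per factor. Other genes, namely those behind counts of 5 or fewer, list members under 2-fold and cell type markers, were chosen after their values were seen. The alternatives numbered 8. Scripts were tested on simulated data. Python 3.11.15, numpy 2.4.6, pandas 2.3.3, scipy 1.17.1 and matplotlib 3.10.9 were used.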

Additional observations from a re-analysis of the deposited data

How the results depend on the processing

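With the control of the same vector, each factor's difference in FLAG-CACUL1 and in sh-CACUL1 kept its direction under quantile normalization and median-of-ratios scaling. In sh-CACUL1 the 3 downward differences shrank, Klf9 to -0.05 under both, Cebpd to -0.22 and -0.11, and Ebf1 to -0.45 and -0.44. The 6 upward ones grew. The pseudocounts (0.1 or none), the filter of 1 FPKM in all samples, the 3-fold cut-off and the choice of row cannot turn a direction, since each factor has 1 row. The count of factors higher in FLAG-CACUL1 went from 1 to 0 under quantile normalization, median-of-ratios scaling and the 3-fold cut-off. The filter removed Cebpa and Klf15 and thereby left 2 of 4 lower factors in FLAG-CACUL1 and 3 of 5 higher ones in sh-CACUL1, and the 3-fold cut-off also left 3. With the other control, 1 factor was lower in FLAG-CACUL1, and 1 was lower and 2 higher in sh-CACUL1. The signs of Cebpa (0.86) and Nr1h3 (1.31) in FLAG-CACUL1 and of Pparg (-0.18), Cebpa (-1.36) and Klf15 (-0.48) in sh-CACUL1 then turned. These had passed 2-fold against the control of their own vector. Differences under 2-fold against either control also turned, namely Cebpb (0.83) in FLAG-CACUL1 and Cebpb (-0.95), Cebpd (0.20) and Ebf1 (0.45) in sh-CACUL1. The cause was not tested. No paired analysis was possible because each group had 1 sample, and for the same reason no replicate could be left out. Depth limits Klf15 and Cebpa most, at an estimated 6 and 26 fragments in their lowest samples.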

Other observations

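Klf9 and Klf15 are also known targets of the glucocorticoid receptor, and dexamethasone was part of the induction. Of 8 other glucocorticoid-induced genes, all measured, 5 were lower and 0 higher in FLAG-CACUL1 (median -1.13), beside 7.22% and 7.51% of all genes. In sh-CACUL1, 2 were lower and 0 higher (median -0.68), beside 16.4% and 4.94%. The largest differences were those of the metallothionein gene Mt2, at 4503 FPKM in FLAG, 180.3 FPKM in FLAG-CACUL1, 42.1 FPKM in sh-Luc and 0.984 FPKM in sh-CACUL1. Its neighbour Mt1 differed by -2.26 and -0.83. Zbtb16 (-1.21 and -1.67) was also lower in both treated lines, whereas Mt1, the clock gene Per1 (-2.04 and -0.64) and the phosphatase gene Dusp1 (-1.06 and -0.72) passed 2-fold in FLAG-CACUL1 alone. The others, Fkbp5 (0.00 and 0.98), Sgk1 (0.96 and -0.55) and Tsc22d3 (0.11 and -0.55), were not lower in FLAG-CACUL1 and stayed under 2-fold in both lines. Klf9, with -0.85 and -0.49, was lower in both without reaching 2-fold, but the second was -0.05 after quantile normalization or median-of-ratios scaling. Klf15 was lower in one line and higher in the other. The receptor gene Nr3c1 measured 27.4 FPKM in FLAG, 36.0 FPKM in FLAG-CACUL1, 15.3 FPKM in sh-Luc and 12.5 FPKM in sh-CACUL1, with differences of 0.38 and -0.27.

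Among the preadipocyte markers, Dlk1 (Pref-1), which is lost as preadipocytes differentiate, and the mesenchymal surface marker Thy1 went against the rest of their list in sh-CACUL1. Dlk1 was also the 1 marker of the list that was lower in FLAG-CACUL1 (-1.28). Dlk1 measured 97.2 FPKM in FLAG, 39.4 FPKM in FLAG-CACUL1, 0.220 FPKM in sh-Luc and 21.2 FPKM in sh-CACUL1. Thy1 measured 42.4, 144.2, 0.663 and 34.3 FPKM in the same order. Both were near 0 in sh-Luc, the control in which Pparg, Cebpa, Nr1h3 and Klf15 were also low.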
